A study of Rattus norvegicus with 2 samples.

Results

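The genes described here mark the distal convoluted tubule and the connecting tubule, the stretch of the nephron between the thick ascending limb and the collecting duct. The set holds 10 genes, of 13435 named genes with a probe on the array, and was chosen by name: every non-control probe whose RefSeq accession maps to one of the 10 was taken. A probe matched 8 of the 10 genes, with 11 probes on 20 spots per array, and 7 genes gave a signal well above background on both arrays. Trpm6 and Pvalb had no matching probe and are not analysed here.

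RNA came from whole kidneys of females of the PCK strain, rats whose Pkhd1 gene is mutated and whose kidneys and liver form cysts, as in the recessive form of human polycystic kidney disease. Every animal of both groups belongs to this strain, and the +/+ rats that the treatment text also names are not analysed here. The pioglitazone group received 10 mg/kg of pioglitazone, a drug that activates PPAR-gamma, by daily gavage between 4 and 20 weeks of age. The vehicle group received 0.5% DMSO over the same ages. Kidney RNA was pooled within each group (5 females per the design text, 3 rats per the labelling text, which were not reconciled), and each pool was read on 1 array. Both arrays lie on 1 slide, so array position and treatment cannot be told apart. With 1 array per group no difference has a replicate check, no p-value was computed, and the spread between animals cannot be seen.

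The distal convoluted tubule reabsorbs sodium chloride through the thiazide-sensitive cotransporter NCC, encoded by Slc12a3, the gene that defines the segment. The kinases WNK1 and WNK4 control NCC through phosphorylation, and the basolateral potassium channel subunit Kir4.1, encoded by Kcnj10, helps to set the membrane voltage. The late distal convoluted tubule and the connecting tubule reabsorb calcium across the cell: it enters through the channel TRPV5 (Trpv5), is carried by the binding proteins calbindin-D28k (Calb1) and calbindin-D9k (S100g), and leaves through exporters such as the sodium-calcium exchanger NCX1 (Slc8a1). TRPM6 takes up magnesium in the distal convoluted tubule, and parvalbumin (Pvalb) binds calcium in its early part.

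The promoter windows shown are those of Slc12a3 and Wnk4, the transporter and a kinase that controls it. Read from the brightest probe of each gene, they gave the highest and the lowest difference among the measured sodium genes. With means over probes Wnk1 was lower than Wnk4. Each runs 5′ to 3′ on the gene's strand from 250 bases before to 50 bases after the RefSeq start in the GRCr8 build. The Slc12a3 window is chr19:10675001-10675300 on the minus strand and the Wnk4 window is chr10:86702708-86703007 on the plus strand. Capitals mark the TATA box TATAAA and the GC box GGGCGG, each searched on both strands.
Slc12a3: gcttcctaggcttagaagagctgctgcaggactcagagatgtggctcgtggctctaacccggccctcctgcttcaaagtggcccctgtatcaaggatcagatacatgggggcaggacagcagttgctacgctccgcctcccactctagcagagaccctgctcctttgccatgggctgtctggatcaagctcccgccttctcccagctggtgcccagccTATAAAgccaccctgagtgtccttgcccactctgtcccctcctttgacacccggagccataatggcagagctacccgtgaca
Wnk4: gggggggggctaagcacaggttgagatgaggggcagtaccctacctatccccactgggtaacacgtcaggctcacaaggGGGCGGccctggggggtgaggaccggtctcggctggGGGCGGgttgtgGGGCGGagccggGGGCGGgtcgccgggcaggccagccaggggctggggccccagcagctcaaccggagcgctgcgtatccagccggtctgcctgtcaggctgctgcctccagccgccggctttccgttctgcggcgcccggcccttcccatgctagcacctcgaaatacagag

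The Slc12a3 window holds 1 TATA box, which begins 32 bases before the start, and no GC box. The Wnk4 window holds 4 GC boxes and no TATA box, and its GC content was 70.7% against 59.0% for Slc12a3. RefSeq windows were found for 8 of the 10 genes. Among these, the TATA box occurred in 1 gene (Slc12a3) and in 14.2% of all 33469 windows, and the GC box in 3 genes (Kcnj10, Pvalb and Wnk4) and in 33.1% of all windows. The half-site AGGTCA that many nuclear receptors bind was found in 0 of the 8 genes and in 16.2% of all windows, which says only that these letters are not in these windows.

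Of the 7 measured genes, 0 met the criterion of a 1.5-fold difference that also exceeds 2 times the technical error, where 2.51% of all 10480 measured genes met it (0.754%, or 79 genes, higher and 1.76%, or 184 genes, lower). With 7 genes, a count of 0 cannot be told apart from that share. Differences are pioglitazone minus vehicle on the log2 scale after each array's 75th percentile was subtracted. The technical error combines the scanner software's error of both spots. For bright spots that software error is a near-fixed fraction of the signal, such as 85 of 850 or 255 of 2550. The technical error of bright genes was therefore 0.20 whatever their spot noise, and 2 errors was nearly a fixed cut of 0.41. The median difference of the 4 sodium genes was 0.14 and that of the 3 measured calcium genes was -0.15, and all measured genes together had a median of 0.03. The largest difference in each direction belonged to Slc12a3 (0.26) and S100g (-0.41).

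**Figure D1:**
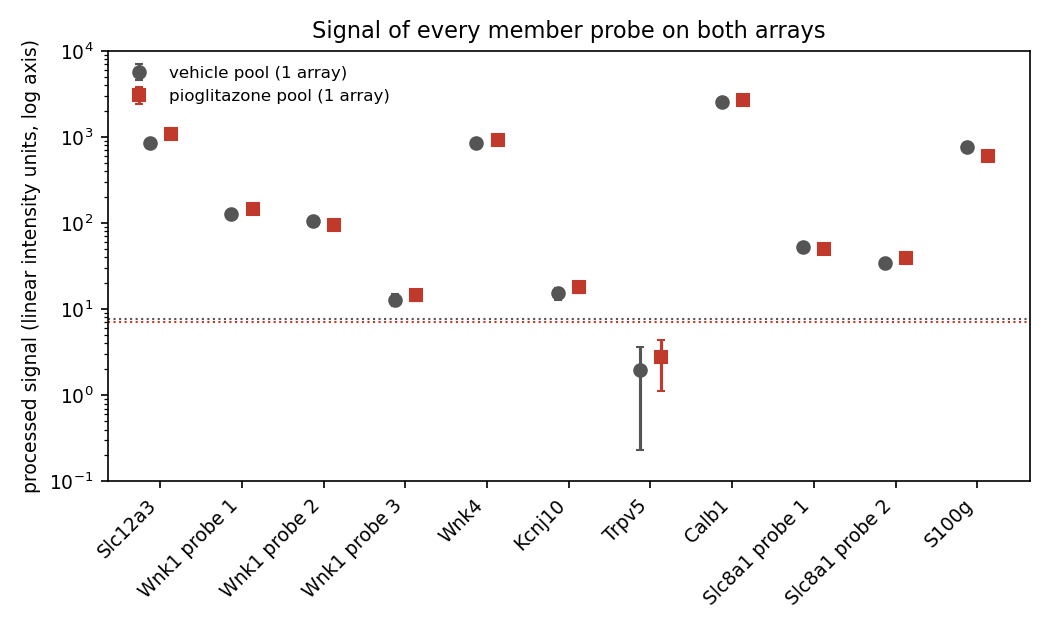
Processed signal (linear intensity units, log axis) of the 11 probes of the 8 genes with a probe, for the vehicle pool (circles) and the pioglitazone pool (squares), 1 array each; bars are the software's error and dotted lines the lowest signal well above background on each array (7.66 and 7.16). The 2 signals of each probe lie close together, and Trpv5 alone lies below the dotted lines.

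Among the sodium genes, Slc12a3 gave a signal of 850 ± 85 with vehicle and 1080 ± 108 with pioglitazone, where ± is the software's error of 1 spot. The difference was 0.26, a 1.2-fold higher scaled signal, with a technical error of 0.20, so it lay within 2 times the error. Of all measured genes 8.20% had a higher difference, and so did 5.67% of the 2452 genes whose mean signal lay within 1 log2 unit of that of Slc12a3. The difference stayed positive under 5 scalings of the arrays, between 0.24 and 0.35. Slc12a3, the defining marker of the segment, was thus well above background on both arrays. Its difference was on the high side and within 2 technical errors.

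Wnk4 gave signals of 859 ± 85.9 and 915 ± 91.5, a difference of 0.0087 with a technical error of 0.20. Its sign turned under cyclic loess scaling (-0.015), so no direction is given. Wnk1 was read by 3 probes, a pair for one RefSeq transcript and 1 for another. The brightest gave 127 and 147 for vehicle and pioglitazone, a difference of 0.13, and the second probe of the same transcript gave 105 and 93.6, a difference of -0.25. The third probe, for the other transcript, was dim at 12.9 and 14.6, a difference of 0.10. The probes of Wnk1 therefore went both ways, but the largest gap between any pair of them, 0.38 with a combined technical error of 0.29, lay within 2 errors. The second probe lies in the sixth of 10 equal bands of grid rows. The sixth and the seventh band held 20.7% of all measured probes and 28.7% of those past the criterion. These bands also held 5 of the 10 spots of the brighter Slc8a1 probe. Whether position bears on the second Wnk1 probe was not tested. A mean over the 3 probes was -0.0079.

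Kcnj10 was dim, at 15.2 ± 2.31 with vehicle and 17.9 ± 2.45 with pioglitazone, not far above the lowest signals called well above background (7.66 and 7.16). Its difference of 0.15 had a technical error of 0.30. Its partner in the basolateral channel, Kcnj16, which encodes Kir5.1, is on the wider list below and was at 0.32. Each of the 4 sodium genes had a positive difference by its brightest probe under 75th percentile scaling, as did 56.1% of all measured genes. Exceptions were given above for cyclic loess (Wnk4) and for further probes (Wnk1), and Kcnj10 turned to -0.059 with normexp background correction.

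**Figure D2:**
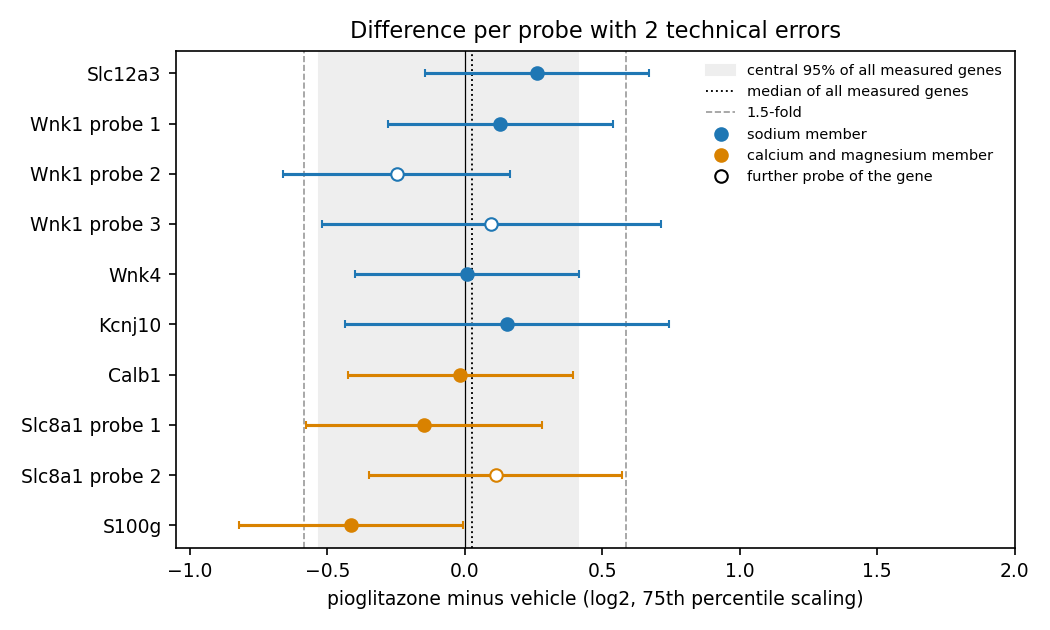
Difference between pioglitazone and vehicle (log2, 75th percentile scaling) for the 10 measured probes of 7 genes, with bars of 2 technical errors; the shaded band is the central 95% of all 10480 measured genes. Only the bar of S100g does not reach 0, none of the points passes the dashed lines at 1.5-fold, and the signs of Wnk4 and Calb1 turn between scalings.

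Among the calcium genes, S100g gave 763 ± 76.3 with vehicle and 606 ± 60.6 with pioglitazone. The difference was -0.41, a scaled signal 1.33-fold lower with pioglitazone, against 2 technical errors of 0.41, which it exceeded so narrowly that both round to the same value. It was the 1 gene of 7 to exceed 2 technical errors, a mark that 5.61% of all measured genes passed (1.77% higher and 3.85% lower). Of all measured genes 4.74% had a lower difference, and so did 2.87% of the 2443 genes of like signal. S100g was negative under each of 5 scalings, between -0.43 and -0.33, and exceeded 2 errors under 3 of them. With median scaling (-0.36) and with unscaled signals (-0.33) it lay within 2 errors.

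Calb1, the other vitamin D dependent calbindin, gave 2550 ± 255 and 2670 ± 267. Its difference was -0.016 with a technical error of 0.20, and its sign turned with median scaling (0.04) and without scaling (0.07). The gap between both calbindins, 0.40 with a combined technical error of 0.29, was within 2 errors. Trpv5, the apical calcium channel, was not well above background on either array, at 1.95 ± 1.72 and 2.76 ± 1.65, so no fold is given. These signals are a bound from 1 probe, not evidence about the channel's presence.

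Slc8a1 was the 1 member printed in replicate, with 10 spots of its brighter probe on each array, none of them flagged. The spots ran from 44.4 to 58.2 with vehicle (median 51.8) and from 44.5 to 55.0 with pioglitazone (median 49.4). The 2 sets of spots overlapped over most of their range. Before scaling the signal was lower with pioglitazone at 8 of the 10 spot positions and higher at 2, and after scaling it was lower at 9. The mean difference was -0.15, with single spots between -0.34 and 0.13 and an SD of 0.13 over the 10 positions. The technical error from the software was 0.21 for this probe, larger than that SD. These spots are repeats of 1 hybridisation per pool, so their agreement measures spot noise and not the spread between animals. A second Slc8a1 probe, read from 1 spot, gave 33.9 and 38.8, a difference of 0.11 in the other direction, and the mean over both probes was -0.019.

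**Figure D3:**
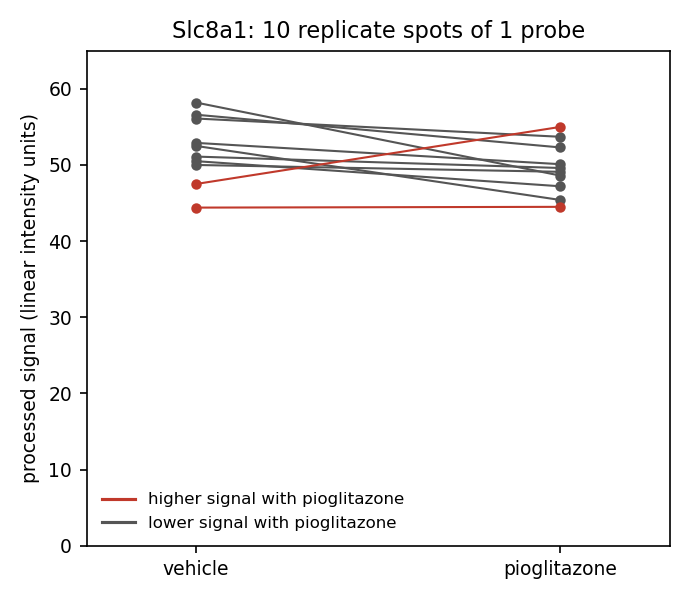
Processed signal (linear intensity units, before scaling) of the 10 replicate spots of the brighter Slc8a1 probe, each line joining the same grid position on the vehicle and the pioglitazone array. The lines go down at 8 positions and up at 2, within a range of 44.4 to 58.2 over both arrays.

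Setting sodium against calcium handling, the group medians were 0.29 apart, and 0.27 to 0.30 apart over 5 scalings. The 75th percentile, median and unscaled settings shift every gene equally, so the gap cannot differ among them. With normexp correction the medians lay closer together, at 0.04 and -0.14. By the brightest probe each of the 4 sodium genes lay above each of the 3 calcium genes under 75th percentile scaling, but Wnk4 and Calb1 were only 0.02 apart, and the further probes of Wnk1 (-0.25) and Slc8a1 (0.11) broke this order. With means over probes the medians were 0.08 and -0.019. Of the 21 pairs among the 7 genes, 1 pair differed by more than 2 combined technical errors: Slc12a3 and S100g, the 2 ends of the order, were 0.68 apart with a combined error of 0.29. The ratio of Slc12a3 to S100g signal was thus 1.60-fold higher with pioglitazone, a difference that linear scaling cannot change and that was 0.60 with normexp correction. That pair is the most distant of the 21 and was singled out for its distance. In whole-kidney RNA fewer cells of a type and less RNA per cell cannot be told apart.

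**Figure D4:**
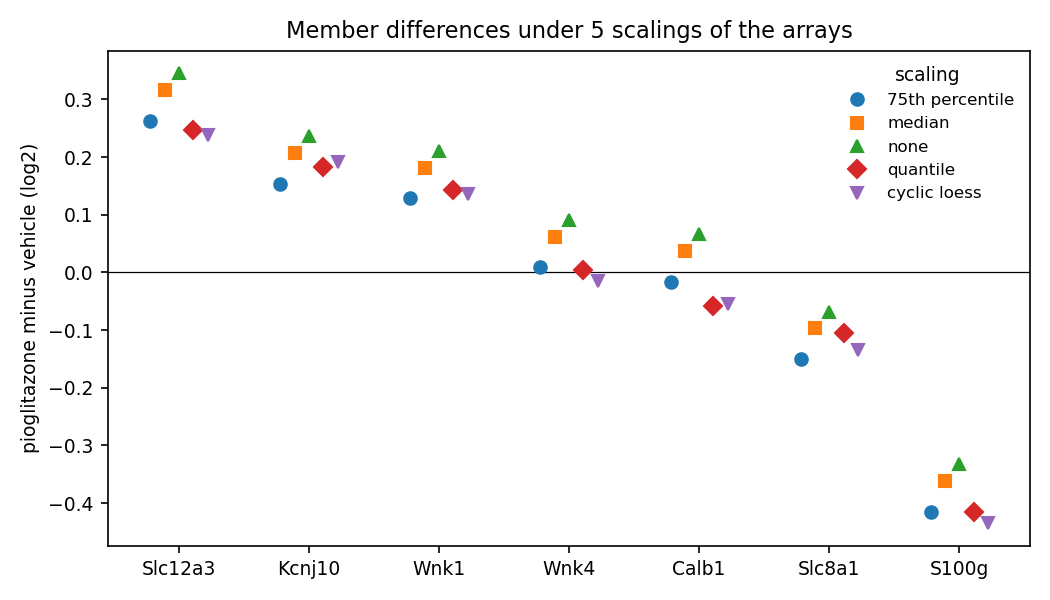
Difference between pioglitazone and vehicle (log2) for the 7 measured genes under 5 scalings of the arrays. Slc12a3, Kcnj10 and Wnk1 stay above 0 and Slc8a1 and S100g below it by the brightest probe, while Wnk4 and Calb1 lie on both sides of 0.

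The wider list of sodium chloride transport and its regulators in the distal nephron had 23 of 26 genes measured. Of these 17 were positive, with a median of 0.12, where 56.1% of all measured genes were positive, with a median of 0.03. Over 5 scalings the list median ran from 0.07 to 0.20, which was 0.06 to 0.10 above the all-gene median. None of the 23 met the 1.5-fold criterion, and 1 was higher and 2 were lower by more than 2 technical errors. Klk1, the tissue kallikrein that connecting tubule cells secrete, was at 0.45 (signals 21400 and 31000), although close kallikrein paralogs can share its probe's signal. Slc4a8, a sodium-driven chloride and bicarbonate exchanger, was at -0.51 (85.0 and 63.3). Klk1 exceeded 2 errors under 3 of 5 scalings and Slc4a8 under 5.

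Other regulators of NCC named here, and the subunits of the epithelial sodium channel, lay within 2 errors. Stk39 and Oxsr1, which encode the kinases SPAK and OSR1 that phosphorylate NCC below the WNK kinases, were at -0.010 and -0.17. Sgk1, an aldosterone-induced kinase, was at -0.32, and Nr3c2, the mineralocorticoid receptor, at 0.02. Cul3, a ubiquitin ligase scaffold that removes WNK kinases, was at 0.02. The signs of Stk39, Nr3c2 and Cul3 turned between scalings, and the probes of Cul3 went both ways, so no direction is given for them. The sodium channel subunits Scnn1a, Scnn1b and Scnn1g were at 0.27, 0.12 and 0.19.

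The wider list of calcium and magnesium transport and its regulators had 22 of 28 genes measured, with 11 positive, 11 negative and a median of -0.0023. Of all measured genes 56.1% were positive. None met the 1.5-fold criterion, and 1 was higher and 1 was lower by more than 2 technical errors. Both encode enzymes of vitamin D metabolism. Cyp27b1, which makes the active hormone, gave 94.9 with vehicle and 141 with pioglitazone, a difference of 0.49 that exceeded 2 errors under 5 of 5 scalings. Cyp24a1, which breaks the hormone down, gave 807 and 613, a difference of -0.48 that exceeded 2 errors under 4 of 5. Vitamin D is known to induce Cyp24a1 and both calbindins, of which S100g (-0.41) and Cyp24a1 were negative and Calb1 (-0.016) had no settled sign. The arrays do not measure the hormone, and a link between it and these values was not tested. The receptor gene Vdr was at 0.0020, and Trpv6, a calcium channel related to Trpv5, was at -0.25, within 2 errors.

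**Figure D5:**
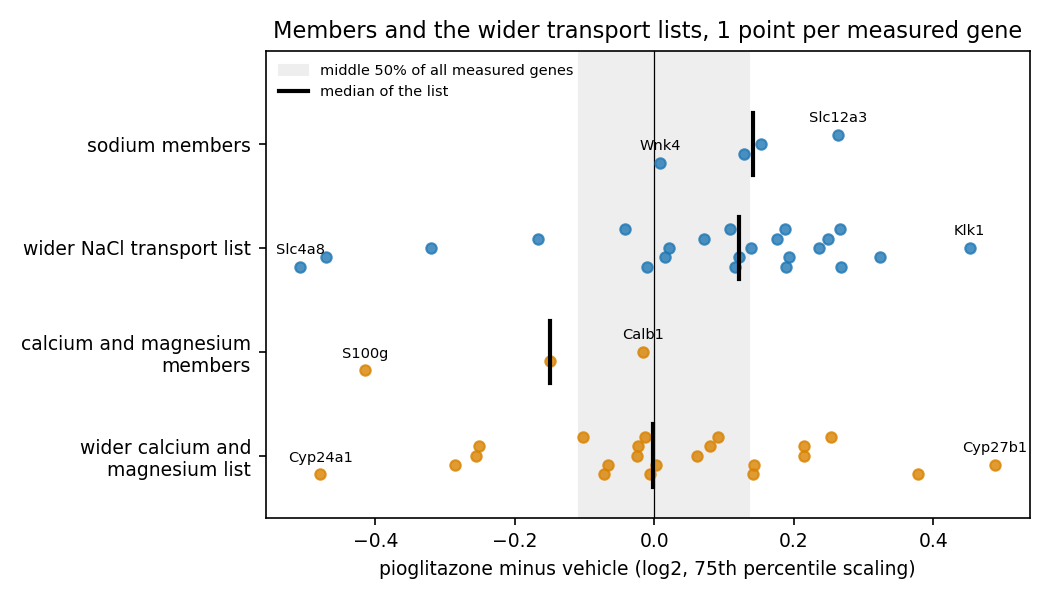
Difference between pioglitazone and vehicle (log2, 75th percentile scaling), 1 point per measured gene, for the sodium genes (4), the wider sodium chloride list (23), the calcium genes (3) and the wider calcium and magnesium list (22); black bars are list medians and the shading is the middle 50% of all measured genes. The wider calcium and magnesium list is centred on 0 and runs from Cyp24a1 (-0.48) to Cyp27b1 (0.49).

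Other genes of divalent ion handling lay within 2 errors under 75th percentile scaling. Pth1r, the parathyroid hormone receptor, was at 0.38 and exceeded 2 errors under 2 of 5 scalings, with median scaling (0.43) and without scaling (0.46). Egfr was at -0.29, while Egf, whose product stimulates magnesium uptake, was at 0.22. The plasma membrane calcium pump gene Atp2b1 was at -0.10. The magnesium transport genes Cnnm2 and Slc41a1 were at 0.14 and -0.014, and the sign of Slc41a1 turned between scalings. Casr, the calcium-sensing receptor, was at 0.08 and Kl, which encodes klotho, at 0.25. Atp2b4, Kcna1 and Slc8a2 were not well above background.

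Neighbouring segments and other cells in the whole kidney were read from marker lists, with summed signals in units of each array's 75th percentile. Thick ascending limb markers (7 of 10 measured) had a median of 0.03 and summed to 688 with vehicle and 750.1 with pioglitazone, principal cell markers (8 of 9) 0.02, 219.9 and 220.3, and intercalated cell markers (9 of 9) 0.21, 224 and 259. Proximal tubule markers (12 of 12) had a median of 0.14 and summed to 584 and 625, podocyte markers (6 of 6) 0.21, 31.0 and 34.9, and endothelial markers (7 of 7) -0.045, 31.6 and 35.5. The brightest genes weigh most in a sum, such as Umod (signals 195000 and 220000) for the thick ascending limb. Kdr (11000 and 13500) made up most of the endothelial sum, although 4 of those 7 markers were negative. Principal cell markers also went both ways, with 4 positive, up to Hsd11b2 (0.19), and 4 negative. The negative ones included Aqp2 (-0.34), Aqp3 (-0.29) and Gata3 (-0.43), of which Gata3 exceeded 2 technical errors. Macrophage markers (7 of 8) were negative in all 7, with a median of -0.43 and sums of 10.3 and 7.58. Of these Itgam (-0.77), Trem2 (-0.66) and Gpnmb (-0.62) met the criterion, and Cd163 was not well above background. Itgam was dim, with signals of 24.3 and 15.1 and a technical error of 0.28. Fibroblast markers (7 of 7) had a median of -0.36 and sums of 48.0 and 37.3, with Col3a1 (-0.63) past the criterion. Of the fat and adrenal genes (2 of 6 measured, median -1.19) Retn met it at -2.27 and Adipoq was at -0.097, while Cyp11b1 was well above background with vehicle alone and Cyp11b2 on neither array, and of skeletal muscle markers 3 of 7 were measured with a median of 0.02. The part of these shifts in the differences of the distal genes was not tested.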

How the data were processed

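Kidney RNA pools of 1 vehicle and 1 pioglitazone group were labelled with Cy3 and read on 2 one-colour Agilent arrays. The deposited scanner files give a linear intensity for each spot. Background subtraction and spatial detrending were done array by array in Agilent Feature Extraction 10.7.3.1, per the file headers (the version also per the submitters' processing notes), and the arrays were not scaled to each other. All 45018 features of either array had the same intensity in the deposited value table (column medians 46.8 and 47.7).

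Of 43379 non-control spots, 71.8% and 73.1% were well above background and 0 were saturated, and 149 with an outlier flag were left out. Scaling took log2 of the processed signal and set the 75th percentile of both arrays to 0, a shift of 0.08. Spots of a probe were averaged. RefSeq accessions without versions named 16959 of 40998 probes through a GRCr8 gene table. A gene was read from its brightest probe and was measured if every spot of it was well above background on both arrays. The technical error was propagated from the software's spot errors and was not reduced for repeat spots. Its median was 0.20. The files' annotation uses the rn4 build, so promoter coordinates are those of RefSeq's GRCr8 table.

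Named were all members and, from each wider list, every gene past the criterion and the 4 measured genes with the largest difference. A gene that this rule selects is not reported here. Other genes of these lists were named for their role after the values were seen. The members and all lists were chosen with earlier results of these data known. The calculation was tested on simulated data. Scaling alternatives used limma 3.58.1 in R 4.3.3, and the rest pandas 2.3.3.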

Additional observations from a re-analysis of the deposited data

How the results depend on the processing

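With 1 array per group, the software's error is the only error available for every gene. Among the measured member probes the dim ones (Kcnj10, the third Wnk1 probe) carry the most of it. Trpv5, not well above background, had a technical error of 1.54. Of 63 values of the 7 genes under alternative settings, 63 moved by less than 1 technical error. Many of these could not move, so this count overstates stability. No member spot was flagged, and the filter on dim probes leaves measured genes as they are. Means over probes could change only Wnk1 and Slc8a1, and removing grid rows only Slc8a1. The number of members called was 0 under 5 scalings, normexp, means over probes, flagged spots kept, no filter on dim probes and a 1.5-fold difference alone. It was 1 (S100g) for a difference over 2 technical errors alone, and 1 for 1.2-fold with 2 technical errors. The sodium median ran from 0.04 with normexp to 0.22 unscaled, and the calcium median from -0.28 without Calb1 to -0.019 with means over probes; it was -0.083 without S100g and -0.083 with no filter, which admits Trpv5. Slc12a3, Slc8a1 and S100g kept their sign under all 9 alternatives run for each, Wnk1, Wnk4 and Kcnj10 under 8 and Calb1 under 7. These counts include the settings that could not change a gene. Without the sixth and the seventh band of grid rows Slc8a1 was at -0.14. Over all genes, 263 met the criterion (79 higher, 184 lower), against 57 with normexp (10 and 47), 247 unscaled (130 and 117) and 241 with median scaling (109 and 132), and 588 exceeded 2 errors at any fold. The all-gene median was 0.11 without scaling. Normexp on median signals, the removal of grid rows and leaving out single members were chosen after seeing the data, and a planned normexp fit to mean spot signals was not run for want of that column among those used here. For none of the settings that changed a value was the cause tested. No paired analysis was possible because there is 1 array per group.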
